A study of Mus musculus with 10 samples.

Results

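The genes described here encode the chains of the fibrillar collagens of types I, III and V (Col1a1, Col1a2, Col3a1, Col5a1 and Col5a2), 2 chains of type VI collagen (Col6a1 and Col6a2), the collagen chaperone Serpinh1 and the cross-linking enzyme Lox. They were taken by symbol: each probe set whose platform annotation gave 1 symbol equal to 1 of these 9 genes was kept, whatever its values. The 9 genes stand among 8251 genes with such a probe set, and their 16 probe sets among 10833 with 1 symbol. All 16 passed the filter on low values, which left 9316 of 12422 probe sets for the tests. Col3a1 had 3 probe sets, Col1a1, Col1a2, Col5a1, Col6a1 and Lox had 2 each, and Col5a2, Col6a2 and Serpinh1 had 1 each.

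Collagen chains are made by ribosomes at the endoplasmic reticulum, where prolines and lysines are hydroxylated and the chains wind into triple helices. Serpinh1 (HSP47) is a chaperone of the endoplasmic reticulum that binds the folded helix and accompanies procollagen to the Golgi. Type I collagen joins Col1a1 and Col1a2 chains, type III is made of Col3a1 chains, type V (Col5a1 and Col5a2) enters the same fibrils, and type VI (Col6a1 and Col6a2 with a further chain) forms beaded microfibrils around cells. Outside the cell Lox oxidizes lysines of collagen so that fibrils become cross-linked. Fibroblasts are the main producers of this network.

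The arrays measured RNA of primary mouse embryonic fibroblasts from embryos of the labelled stage e14.5 of the labelled strain C57/BLACK6 and the labelled genotype ATF1 +/-, which the serum-treated and the starved cultures shared, and the series asks how mRNA abundance and translation respond early to serum. Cultures were starved for 48 h in 1% dialyzed serum and then received medium with 10% serum (serum-treated) or 1% serum (starved) for 2 h. Polyribosome RNA and undertranslated RNA came from sucrose gradients of 15 to 50% after 30 min of cycloheximide at 100 ug/ml, a drug that freezes ribosomes on mRNA. The undertranslated pool held mRNA with no ribosome, a ribosomal subunit or a single ribosome, and the polyribosome pool mRNA with more ribosomes. Cytoplasmic RNA came from lysates of cells without cycloheximide and without a gradient. The 6 groups are serum-treated and starved polyribosome RNA, serum-treated and starved undertranslated RNA (2 arrays each), and serum-treated and starved cytoplasmic RNA (1 array each). In each gradient group, replicate 2 came from cultures labelled with 4-thiouridine at 200 uM and with 3H-cytidine. Each hybridized sample combined corresponding fractions from several cultures. The tests below therefore rest on the variation from one such mix to the next, which in the gradient groups includes the difference in labelling. Both cytoplasmic arrays came from cultures without 4-thiouridine. Cytoplasmic RNA thus differs from the gradient pools in its preparation as well as in its content, and these cannot be told apart.

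The arrays of the pools differed in brightness. The median deposited intensity lay between 45.3 and 54.25 for polyribosome, 5.7 and 8.8 for undertranslated and 19.1 and 19.2 for cytoplasmic RNA, and 68.0 to 73.5%, 43.4 to 53.5% and 56.3 to 64.7% of probe sets were above background in that order. The ratio of the 3′ to the 5′ control probe set of Actb was 11.5 to 21.1 on polyribosome, 23.6 to 137 on undertranslated and 11.9 to 16.6 on cytoplasmic arrays, and that of Gapdh was 6.11 to 20.9, 3.70 to 6.81 and 28.4 to 47.0. The part of these differences in the pool comparisons below was not tested. Values given as normalized log2 levels were log2(intensity + 1.5) after quantile normalization, which gives each array the same distribution, so a difference of 1 between pools is a doubling relative to the other mRNAs of each pool and not in molecules per cell. In bulk RNA, fewer cells of a type and less RNA per cell cannot be told apart. Of 14 fibroblast marker genes, all 14 were above background on the 4 polyribosome arrays and 11 on all 10 arrays.

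RefSeq promoter windows of 6 of the 9 genes were searched (7 windows, Col6a2 having 2), in build GRCm38.p6. Col1a1 and Col5a2 had no entry, and Lox was left out before the search. The counts below do not cover these genes. The 250 bases before the annotated start are shown for the most brightly measured type I chain and for the chaperone, to set the control regions of a structural chain and of its chaperone side by side. The letters searched on both strands were those of the CCAAT box (CCAAT), the GC box (GGGCGG), the TATA box (TATAAA) and TGACG (the first letters of the cyclic AMP response element, the site type bound by the Atf1 family), and the CArG box of serum response factor was searched by its pattern; matches do not overlap in the windows shown and stand in capitals. Col1a2, chr6:4505368-4505617, plus strand, and Serpinh1, chr7:99353240-99353489, minus strand, read 5′ to 3′:
Col1a2: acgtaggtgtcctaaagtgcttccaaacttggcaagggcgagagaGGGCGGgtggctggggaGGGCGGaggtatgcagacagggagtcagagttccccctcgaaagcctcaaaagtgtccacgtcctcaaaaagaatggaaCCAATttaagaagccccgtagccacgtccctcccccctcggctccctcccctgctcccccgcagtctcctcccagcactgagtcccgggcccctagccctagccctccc
Serpinh1: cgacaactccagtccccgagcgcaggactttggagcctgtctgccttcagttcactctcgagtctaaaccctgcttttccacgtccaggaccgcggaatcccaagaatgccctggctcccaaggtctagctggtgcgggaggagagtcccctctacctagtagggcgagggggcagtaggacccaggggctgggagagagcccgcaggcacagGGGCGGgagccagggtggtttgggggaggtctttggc
The Col1a2 window holds 1 CCAAT and 2 GC boxes, and the Serpinh1 window holds 1 GC box. GC boxes stood in the windows of 4 of the 6 genes (Col1a2, Col5a1, Col6a2 and Serpinh1), CCAAT in that of Col1a2 alone and TATAAA in that of Col3a1 alone, against 32.7, 33.8 and 12.4% of all 32851 RefSeq windows of this length. TGACG (17.8% of all windows) and the CArG box (1.47%) were in none of the 7 windows. A match describes letters and not binding, and the absence of one says nothing about a factor acting elsewhere.

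Collagen mRNAs were among the bright mRNAs of these cells. Averaged over the 10 arrays, Col5a2 (92567_at) ranked above 99.2% of probe sets of an array, Col3a1 (98331_at) above 98.7%, Col1a2 (101130_at) above 98.6%, Lox (160095_at) above 97.8% and Col5a1 (93472_at) above 97.6%. The lowest ranks were those of Col6a1 162459_f_at at 48.6% and Col6a2 at 68.2%. These ranks depend on each probe set's own brightness and do not order the genes by abundance. On the 4 polyribosome and the 2 cytoplasmic arrays all 16 probe sets were above background. On the 4 undertranslated arrays 12 were; Col6a2 was above it on 3, Col5a1 101080_at and Serpinh1 on the 2 starved ones, and Col6a1 162459_f_at on 0.

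**Figure D1:**
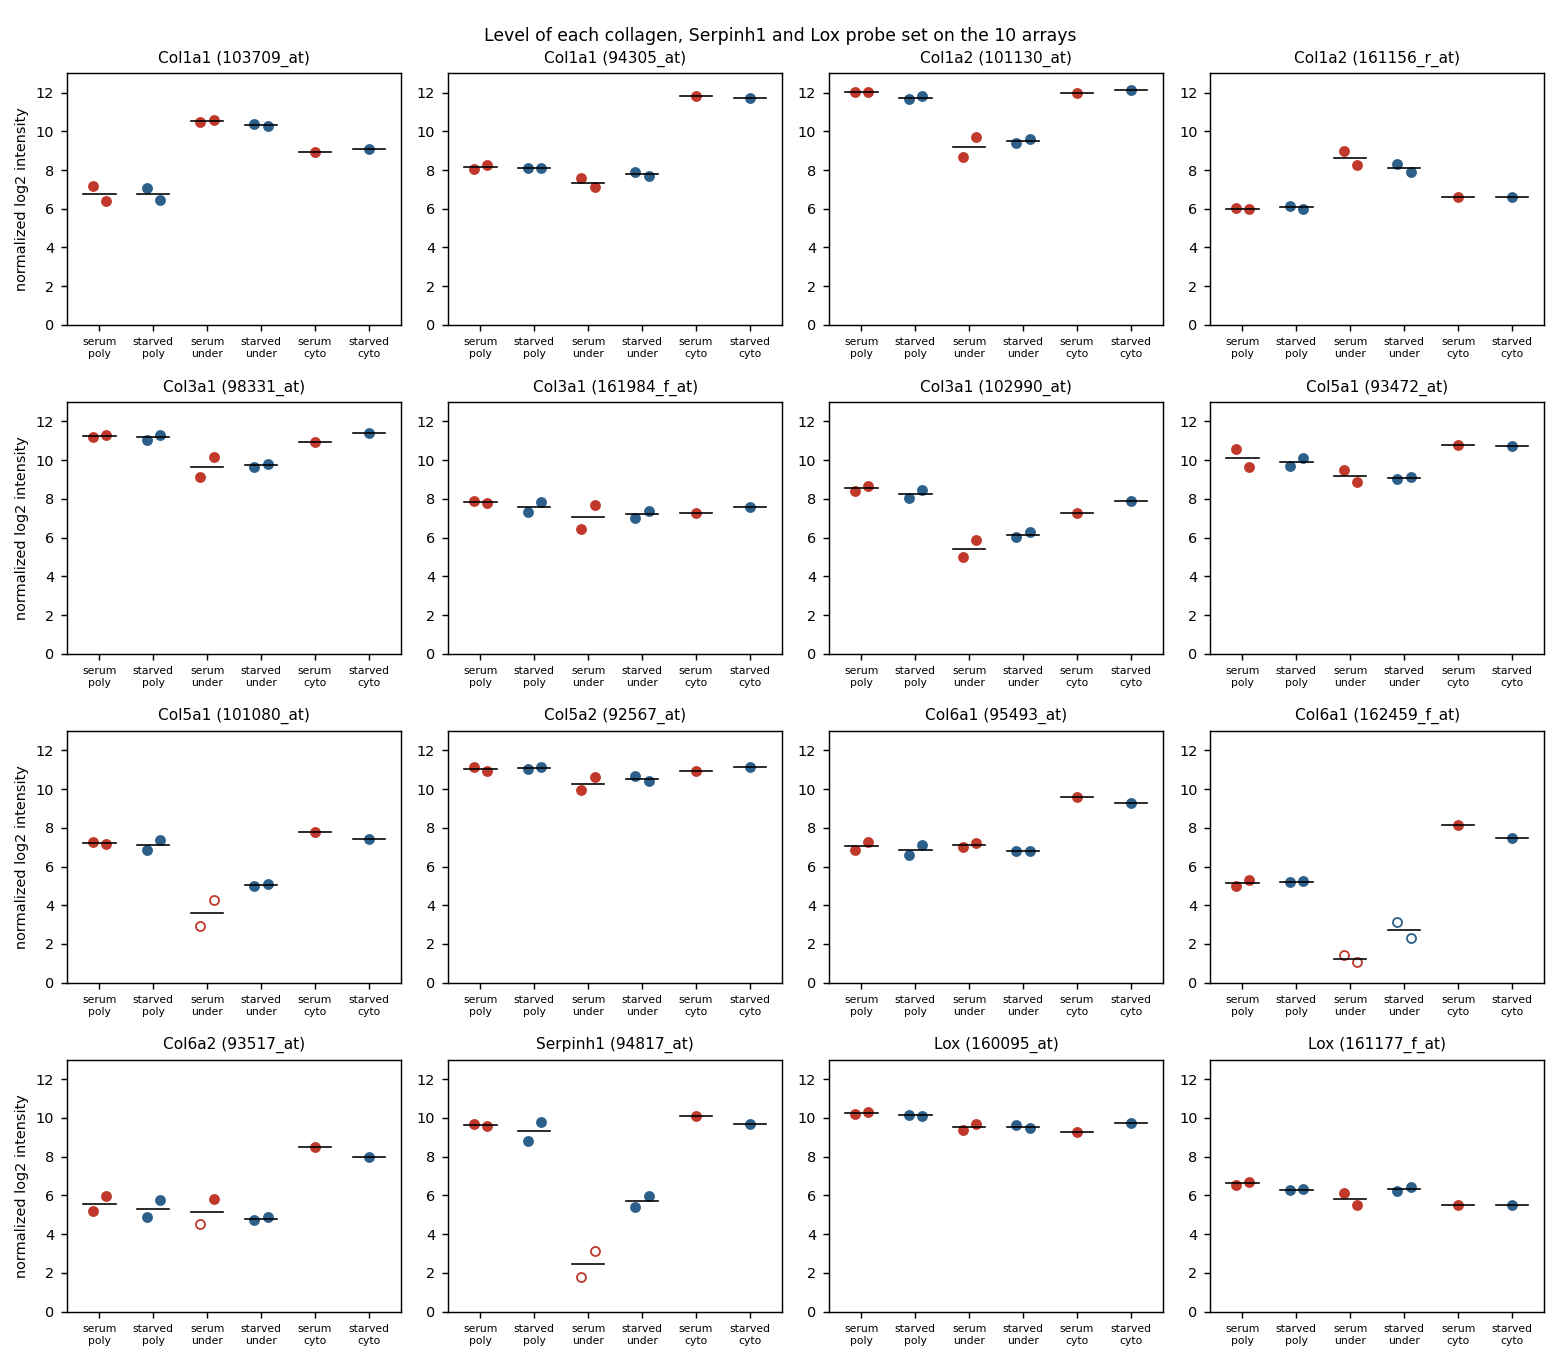
Normalized log2 intensity (vertical axis) of the 16 probe sets, 1 panel each, on the 10 arrays, grouped as serum-treated (red) left of starved (blue) for polyribosome (poly), undertranslated (under) and cytoplasmic (cyto) RNA; bars are group means and open symbols are arrays on which the probe set was not above background. The Col1a1 panels run in opposite directions between the gradient pools, and Serpinh1 is below background in serum-treated undertranslated RNA.

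The first comparison asks which of these mRNAs were loaded with ribosomes. On the scale normalized between pools, 10 of the 16 probe sets were higher in polyribosome than in undertranslated RNA, 2 were lower and 4 were not called. Among all 9316 probe sets tested 54.2% were called, 28.7% higher and 25.5% lower. The members' median difference was 0.65 and that of all tested was 0.05. Serpinh1 had the largest fitted difference, followed by Col1a1 103709_at, which was lower. Of the other probe sets above background on at least 1 undertranslated array, 1 each of Col5a1, Col3a1 and Col1a2 came next. The directions depend on the scaling: with the values as deposited the median of all tested probe sets was itself 3.02 higher in polyribosome RNA, with hybridization controls as the scale 3.33, and 15 of 16 members were then called higher and 0 lower, while median centring (median of all 0.55) gave 14 higher and 2 lower. The share of calls that were higher was 99.6, 99.7 and 66.8% under these scalings, against 2673 of 5052 calls after quantile normalization.

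Serpinh1 (94817_at; gene at chr7:99345375-99353239, GRCm38.p6) had normalized log2 levels of 9.68 and 9.59 in serum-treated and 8.82 and 9.81 in starved polyribosome RNA. In undertranslated RNA it had 1.77 and 3.13 (serum-treated, both below background) and 5.40 and 5.98 (starved). Its deposited intensities lay between 2108 and 3086 in polyribosome RNA and between 0.9 and 21.6 in undertranslated RNA, and the groups did not overlap. The difference was 5.41 ± 0.36 log2 (SE; limma, adjusted p = 2.76e-05). Of the 4 undertranslated arrays 2 measured it above background, the starved ones, and in starved cultures the difference was 3.62 log2. In serum-treated cultures it was at least 28.9-fold higher in polyribosome RNA (mean log2 level 9.64 against a bound of 4.78). The fitted difference was 8.38 with the values as deposited, against the median of 3.02, and 5.92 with median centring.

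The type I chains showed the widest disagreement between probe sets of 1 gene. Col1a2 101130_at had 12.02 and 12.02 in serum-treated and 11.67 and 11.81 in starved polyribosome RNA, against 8.66 and 9.72 in serum-treated and 9.40 and 9.62 in starved undertranslated RNA. It was 2.53 ± 0.21 higher in polyribosome RNA (adjusted p = 7.30e-05), with no overlap between the pools. The second Col1a2 probe set, 161156_r_at, whose suffix marks probes chosen under relaxed rules, had 5.98 to 6.14 in polyribosome and 7.89 to 8.96 in undertranslated RNA. It was lower, with a difference of -2.32 ± 0.24 (adjusted p = 0.000146), and this direction turned with the values as deposited, where it was 1.59 higher. Relative to the median of all probe sets it lay below it under both scalings.

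Col1a1 (gene at chr11:94936224-94953042) had 2 probe sets that moved apart. On 103709_at the levels were 7.16 and 6.40 in serum-treated and 7.07 and 6.45 in starved polyribosome RNA, against 10.49 and 10.59 in serum-treated and 10.37 and 10.25 in starved undertranslated RNA. On 94305_at they were 8.05 and 8.24 in serum-treated and 8.12 and 8.09 in starved polyribosome RNA, against 7.58 and 7.12 in serum-treated and 7.88 and 7.67 in starved undertranslated RNA. The first was lower in polyribosome RNA by all 4 arrays and the second higher by all 4. The differences were -3.65 ± 0.22 (adjusted p = 1.88e-05) for 103709_at and 0.57 ± 0.19 (adjusted p = 0.0326) for 94305_at. The call on 94305_at was lost when any of 6 single arrays was left out (both starved undertranslated arrays and the 4 polyribosome arrays), with differences of 0.51 to 0.62. As deposited, 103709_at had 258 to 587 in polyribosome and 189 to 563 in undertranslated RNA, a difference of -0.03 log2 (adjusted p = 0.94) against the median of 3.02.

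The ratio of 2 probe sets on the same array does not depend on the scaling of arrays. The log2 ratio of 103709_at over 94305_at for Col1a1, a pair chosen because it disagrees between pools and so given without a test, was -2.14 to -1.01 on polyribosome arrays, 2.94 to 3.85 on undertranslated arrays and -2.42 to -2.08 on cytoplasmic arrays. For Col1a2, 101130_at over 161156_r_at was 4.89 to 5.49 on polyribosome, -0.28 to 2.07 on undertranslated and 4.95 to 5.0 on cytoplasmic arrays. In both genes the undertranslated arrays stood apart from the other 6. They did so too for Col5a1 (93472_at over 101080_at). Its ratio was 2.51 to 3.10 on polyribosome, 3.74 to 5.2 on undertranslated and 2.87 to 3.08 on cytoplasmic arrays. Of this pair, 101080_at was below background on both serum-treated undertranslated arrays. Col6a1 (95493_at over 162459_f_at) had 1.78 to 2.37, 3.16 to 6.11 and 1.43 to 1.71 in the same order, its second set being below background on the undertranslated arrays. In the other pairs the undertranslated arrays overlapped those of another pool. For Lox (160095_at over 161177_f_at) the ranges were 3.62 to 3.84, 2.50 to 3.89 and 4.04 to 4.44 in the same order. For Col3a1, 98331_at over 161984_f_at had 2.79 to 3.10, 2.08 to 2.87 and 3.29 to 3.52, and 98331_at over 102990_at had 2.07 to 2.27, 3.00 to 4.25 and 2.95 to 3.51. Which stretch of each mRNA the probe sets read, and how often pairs of other genes part in this way, was not analysed here.

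**Figure D2:**
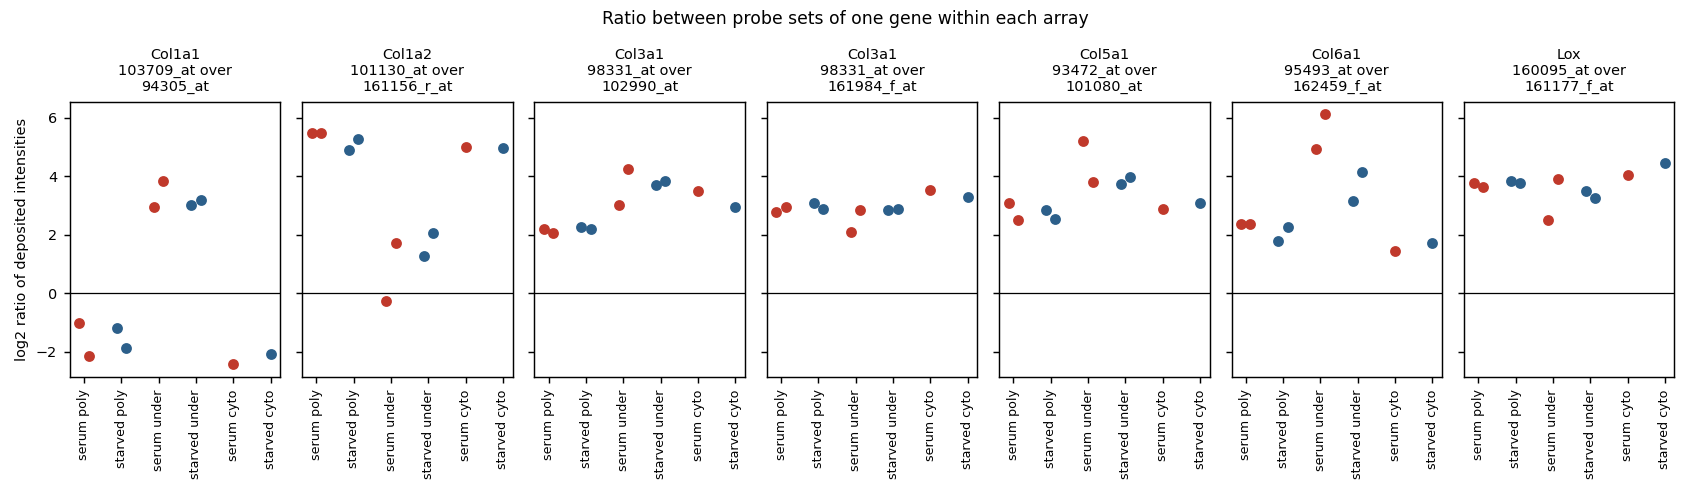
Log2 ratio of deposited intensities between 2 probe sets of 1 gene within each array (vertical axis), 1 panel per pair, with serum-treated arrays (red) left of starved arrays (blue) in each pool. The undertranslated arrays lie at 2.94 to 3.85 for Col1a1 and at -0.28 to 2.07 for Col1a2, apart from the polyribosome and cytoplasmic arrays.

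Among the other fibrillar chains, Col3a1 was higher in polyribosome RNA on 2 of its 3 probe sets. Col3a1 98331_at had 11.19 and 11.30 in serum-treated and 11.03 and 11.32 in starved polyribosome RNA, against 9.14 and 10.16 in serum-treated and 9.65 and 9.83 in starved undertranslated RNA. It was 1.51 ± 0.21 higher (adjusted p = 0.000616), and 102990_at was 2.61 ± 0.26 higher (adjusted p = 0.000141), both without overlap. The third set, 161984_f_at, whose suffix marks probes shared within a gene family, differed by 0.58 ± 0.30 (adjusted p = 0.127) and its groups overlapped. Both probe sets of Col5a1, which helps start fibrils, were higher: 101080_at by 2.85 ± 0.35 (adjusted p = 0.00031) and 93472_at by 0.87 ± 0.24 (adjusted p = 0.0143). On 101080_at the undertranslated levels ran from 2.92 to 5.10 and the polyribosome levels from 6.84 to 7.39. The call on 93472_at was lost without replicate 1 of the starved undertranslated arrays (0.84) and without replicate 2 of the starved polyribosome arrays (0.78). Col5a2 had 10.96 to 11.16 in polyribosome and 9.96 to 10.65 in undertranslated RNA and was 0.65 ± 0.16 higher (adjusted p = 0.00879).

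The type VI chains gave no uniform result between the gradient pools. Col6a1 95493_at had 6.58 to 7.25 in polyribosome and 6.80 to 7.22 in undertranslated RNA. The groups overlapped, and the difference was -0.00 ± 0.23 (95% interval -0.52 to 0.51). As deposited it was 3.89 higher against the median of 3.02, and with median centring 1.42 higher against 0.55. These settings differ only by a constant per array. Its distance from the median, under 1 log2 unit, is therefore the same in both by construction. Col6a1 162459_f_at was below background on the 4 undertranslated arrays, with levels of 1.09 to 3.14, and reached 4.97 to 5.30 in polyribosome RNA. This puts it at least 1.62-fold higher there on the normalized scale. The adjusted p of 0.000226 (limma) belongs to the fitted difference, which used those values below background, and not to this bound. Col6a2 had 4.88 to 5.96 in polyribosome and 4.51 to 5.79 in undertranslated RNA, a difference of 0.47 ± 0.40 (adjusted p = 0.339).

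Lox (160095_at) had 10.20 and 10.31 in serum-treated and 10.16 and 10.11 in starved polyribosome RNA, against 9.38 and 9.71 in serum-treated and 9.62 and 9.49 in starved undertranslated RNA. It was 0.64 ± 0.13 higher (adjusted p = 0.00392) with no overlap. The second set, 161177_f_at, had 6.26 to 6.70 and 5.50 to 6.46, and differed by 0.38 ± 0.25 (adjusted p = 0.221). The difference on Lox 160095_at was smaller than those of Serpinh1 and Col1a2 101130_at. It was close to those of Col5a2 (0.65) and Col1a1 94305_at (0.57). These differences were not tested against each other.

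**Figure D3:**
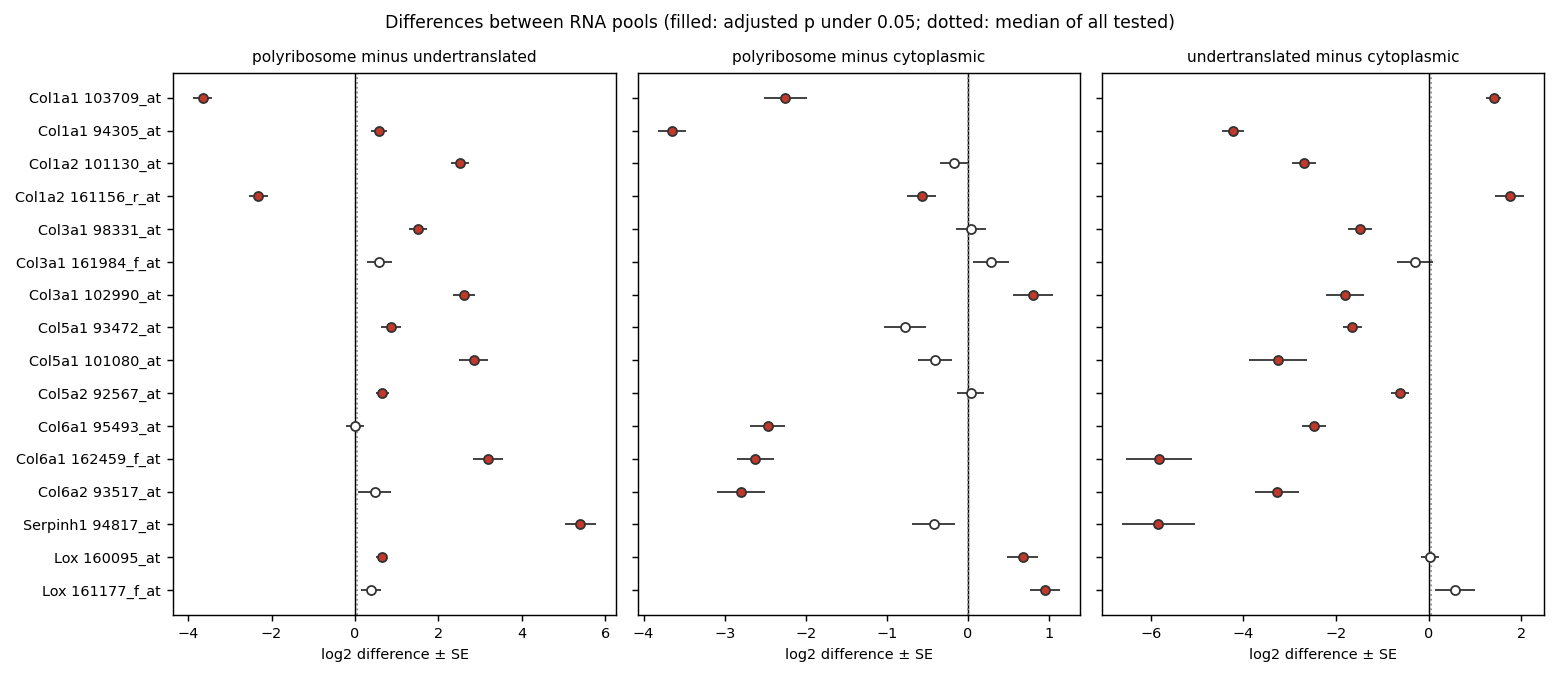
Log2 difference ± SE (horizontal axis) of each probe set between polyribosome and undertranslated RNA (left), polyribosome and cytoplasmic RNA (middle) and undertranslated and cytoplasmic RNA (right); filled points passed an adjusted p of 0.05 and the dotted line is the median of all 9316 probe sets. Serpinh1 reaches 5.41 on the left and -5.83 on the right, and the 2 Col1a1 probe sets point in opposite directions on the left.

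On the scale normalized between pools, genes listed for collagen modification and folding were mostly on the polyribosome side as well. The list also holds general chaperones of the endoplasmic reticulum such as Hspa5 and Calr. Of the 18 tested genes for collagen modification and folding, 12 were higher in polyribosome RNA and 3 lower. Among all probe sets 28.7% were higher and 25.5% lower. The median of these 18 genes was 1.82 against 0.05 for all tested. Colgalt1, which adds galactose to collagen lysines, was at least 4.57-fold higher and P4ha1, a catalytic subunit of prolyl 4-hydroxylase, at least 3.57-fold. Both were below background on the 4 undertranslated arrays. Their adjusted p of 5.2e-05 and 0.0025 (limma) belong to the fitted differences and not to these bounds. P3h4, a protein of the lysyl hydroxylase complex, was 3.49 ± 0.43 higher. Of 16 collagen-binding matrix genes 12 were higher and 2 lower, with a median of 1.82. The small proteoglycan Fmod was at least 7.41-fold higher, the basement membrane linker Nid2 at least 1.69-fold, and Bgn, another small proteoglycan, 3.17 ± 0.16 log2 higher.

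Of 18 other collagens tested, 4 were higher and 6 lower, with a median of -0.21, shares near the 28.7 and 25.5% of all probe sets that the lists of this paragraph are read against. The transmembrane collagen Col13a1 (-2.51 ± 0.36) and the cartilage chains Col9a3 (-2.26 ± 0.25) and Col9a2 (-1.94 ± 0.27) were the lowest. Of 5 genes for processing and cross-linking 3 were higher: Loxl1, a relative of Lox (2.22 ± 0.45), Tgm2 (at least 1.06-fold) and Tll1, a procollagen proteinase of the Bmp1 family (1.05 ± 0.30). Of 10 receptors and turnover genes 5 were higher and 2 lower, among them the collagenolytic protease Ctsk (2.71 ± 0.24), the collagen receptor kinase Ddr1 (1.79 ± 0.36) and the collagen uptake receptor Mrc2 (-1.49 ± 0.32). Of 14 regulators of collagen genes 7 were higher and 3 lower, led by Ccn1 (3.16 ± 0.24), Il4ra (2.43 ± 0.45) and Smad4 (1.93 ± 0.52).

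**Figure D4:**
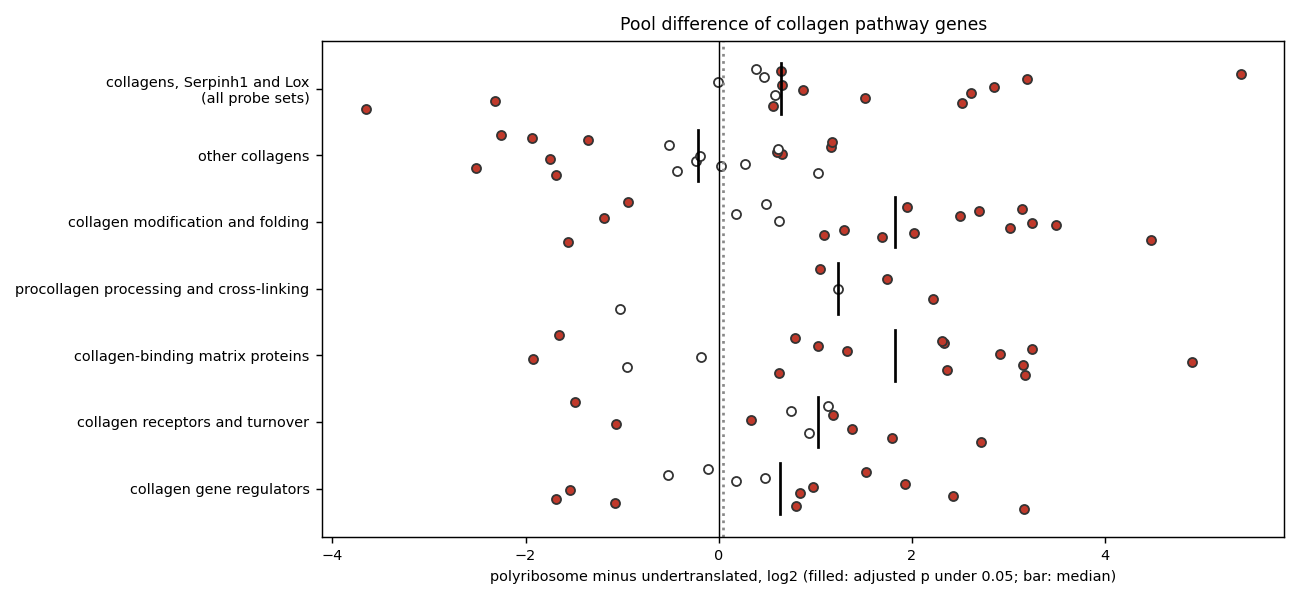
Log2 difference between polyribosome and undertranslated RNA (horizontal axis) for the 16 probe sets of the described genes and, 1 probe set per gene, for 6 lists of related genes; filled points passed an adjusted p of 0.05, vertical bars are medians and the dotted line is the median of all tested. The medians of modification and folding genes and of matrix proteins lie at 1.82, and that of other collagens at -0.21.

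The second comparison sets polyribosome RNA against cytoplasmic RNA of the same serum states. Here 3 probe sets were higher, 6 lower and 7 not called, with a median of -0.42 against 0.00 for all tested; 26.4% of all 9316 probe sets were called, 1350 of them higher and 1113 (11.9%) lower. The type VI chains and Col1a1 were lower on each of their probe sets, while Col1a2 101130_at, Col3a1 98331_at and Col5a2 were close to 0. With the values as deposited, where the median of all was 1.31, 11 members were called higher and 4 lower; median centring gave 3 and 5 and the hybridization controls 2 and 5, with 98.8, 66.2 and 39.3% of all calls being higher.

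Col6a1 95493_at had 6.87 and 7.25 in serum-treated and 6.58 and 7.11 in starved polyribosome RNA, against 9.58 in serum-treated and 9.27 in starved cytoplasmic RNA. It was lower, with a difference of -2.47 ± 0.22 (adjusted p = 0.000376). Col6a1 162459_f_at gave -2.62 ± 0.23 (adjusted p = 0.000333) and Col6a2 -2.80 ± 0.30 (adjusted p = 0.00074). These 3 were lower in the 4 polyribosome arrays than in both cytoplasmic arrays, and were so under each of the 3 other scalings, where their differences ran from -0.97 to -3.27. Among the 9316 probe sets, fewer than 1% had a lower difference than each of them.

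Col1a1 was lower on both probe sets, which disagreed in the previous comparison. Col1a1 94305_at had 8.05 to 8.24 in polyribosome RNA and 11.84 (serum-treated) and 11.72 (starved) in cytoplasmic RNA, a difference of -3.65 ± 0.17 (adjusted p = 2.02e-05). On 103709_at the levels were 6.40 to 7.16 in polyribosome RNA and 8.96 and 9.09 in cytoplasmic RNA, a difference of -2.25 ± 0.26 (adjusted p = 0.000934). As deposited these differences were -1.49 and -0.79, the second with an adjusted p of 0.059. Its partner Col1a2 on 101130_at had 11.67 to 12.02 in polyribosome and 11.96 and 12.15 in cytoplasmic RNA. It differed by -0.17 ± 0.18 (95% interval -0.57 to 0.22; adjusted p = 0.507), and 161156_r_at by -0.57 ± 0.18 (adjusted p = 0.0423), a call lost when any 1 of the 6 arrays was left out. Within each array, Col1a1 94305_at over Col1a2 101130_at was -3.08 to -2.57 log2 on polyribosome arrays and -0.37 to -0.14 on cytoplasmic arrays, so the 2 type I chains did not change alike on these probe sets under any scaling.

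Both Lox probe sets and 1 Col3a1 probe set were called higher in polyribosome RNA, calls that depended on the fit. Lox 160095_at had 10.11 to 10.31 in polyribosome RNA and 9.30 (serum-treated) and 9.74 (starved) in cytoplasmic RNA, a difference of 0.67 ± 0.19 (adjusted p = 0.0294). Lox 161177_f_at gave 0.95 ± 0.19 (adjusted p = 0.00656) and Col3a1 102990_at 0.80 ± 0.25 (adjusted p = 0.0403). The calls on all 3 were lost without the serum-treated cytoplasmic array, where the differences were 0.39, 0.78 and 0.35, and those on Lox 160095_at and Col3a1 102990_at also without either serum-treated polyribosome array. With the replicate number as a block, which also separates the 4-thiouridine-labelled cultures, Lox 161177_f_at kept its call (0.89, adjusted p = 0.0118) while Lox 160095_at (0.66, adjusted p = 0.0504) and Col3a1 102990_at (0.64, adjusted p = 0.098) did not. With all 10 arrays in 1 fit 0 members were called higher. Col3a1 98331_at (0.04 ± 0.19), Col5a2 (0.03 ± 0.17), Serpinh1 (-0.42 ± 0.26), Col5a1 101080_at (-0.41 ± 0.21) and Col5a1 93472_at (-0.78 ± 0.26, adjusted p = 0.0551) were not called. The intervals reached from -0.39 to 0.47 for Col3a1 98331_at and from -1.01 to 0.16 for Serpinh1.

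Among related genes, 1 of 18 modification and folding genes was higher in polyribosome than in cytoplasmic RNA and 4 were lower, where 26.4% of all probe sets were called, 1350 of 9316 higher and 1113 (11.9%) lower. The coat protein Sec23a, part of the vesicles that carry procollagen, was 1.60 ± 0.21 higher, while the lysyl hydroxylase Plod3 (-1.29 ± 0.25) and the coat protein Sec31a (-1.11 ± 0.24) were lower. Of 18 other collagens 1 was higher (Col11a1, 1.31 ± 0.21) and 5 were lower, led by the basement membrane chains Col4a2 (-1.58 ± 0.18) and Col18a1 (-1.20 ± 0.21). Matrix proteins had 2 higher and 2 lower of 16, near the share of all probe sets, the lower ones being Tnc (-1.64 ± 0.25) and Sparc (-1.15 ± 0.18). Of 5 genes for processing and cross-linking 1 was higher and 1 lower, the latter being the procollagen proteinase Bmp1 (-1.65 ± 0.22). Of 10 receptors and turnover genes 1 was higher, the membrane collagenase Mmp14 (1.98 ± 0.43), and 0 were lower.

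Between undertranslated and cytoplasmic RNA, 11 probe sets were lower, 2 higher and 3 not called, with a median of -1.73 against 0.05 for all tested; 30.1% of all probe sets were called, 14.4% higher and 15.7% lower. As deposited 14 were lower and 0 higher against a median of all of -1.55, with median centring 12 and 0 (median of all -0.35), and with hybridization controls 16 and 0 (median of all -3.45); 1.81, 27.3 and 0.0776% of all calls were then higher, against 1341 of 2806 after quantile normalization. Serpinh1 had 1.77 and 3.13 in serum-treated and 5.40 and 5.98 in starved undertranslated RNA, against 10.10 in serum-treated and 9.70 in starved cytoplasmic RNA. Its difference was -5.83 ± 0.79 (adjusted p = 0.00118), a call lost without the serum-treated cytoplasmic array, where the difference was -4.01. Col6a1 162459_f_at was at least 9.96-fold lower. Its adjusted p of 0.000738 (limma) belongs to the fitted difference, which used undertranslated values below background, and not to this bound. Col1a1 94305_at was lower, with a difference of -4.22 ± 0.23 (adjusted p = 2.87e-05), and so was Col1a2 101130_at, at -2.70 ± 0.26 (adjusted p = 0.00025).

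The 2 higher probe sets were the discordant ones of type I collagen. Col1a1 103709_at was 1.40 ± 0.16 higher in undertranslated RNA (adjusted p = 0.000593) and Col1a2 161156_r_at 1.74 ± 0.32 (adjusted p = 0.00427). Both directions turned with the values as deposited (-0.76 and -0.82, against a median of -1.55) and with hybridization controls, so they lay above the median of all probe sets but not above 0. Lox did not pass on either set (0.03 ± 0.19 and 0.56 ± 0.44). The undertranslated levels of 9.38 to 9.71 on 160095_at lay between the 2 cytoplasmic levels of 9.30 and 9.74, and Col3a1 161984_f_at (-0.30 ± 0.39) overlapped as well. Without the serum-treated cytoplasmic array the calls fell to 6 of 16 members and to 462 of all probe sets.

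The serum response was first tested over polyribosome and cytoplasmic RNA together, 3 serum-treated against 3 starved arrays with the pool as a term. Of the 16 probe sets 0 were called, and 0 reached an unadjusted p of 0.05, by limma; of all 9316, 0.891% were called, 0.666% higher and 0.225% lower, and 1091 reached an unadjusted p of 0.05. With the values as deposited, median centring and hybridization controls 62.7, 69.5 and 29.7% of all calls were higher, against 62 of 83 after quantile normalization. The member differences ran from -0.09 to 0.36 with a median of 0.11, against -0.01 for all tested. For Col1a1 94305_at the difference was 0.06 ± 0.16 (95% interval -0.30 to 0.43), and for Col1a2 101130_at 0.12 ± 0.17 (-0.25 to 0.50). The 2 highest were Col6a2 at 0.36 ± 0.28 (-0.28 to 0.99) and Serpinh1 at 0.35 ± 0.25 (-0.20 to 0.91), and Col6a1 95493_at had 0.25 ± 0.20. These intervals leave room for changes of up to 0.43 log2 in Col1a1 94305_at and 0.99 in Col6a2 after 2 h of serum. Directions of the single values are not stated because 10 of the 16 changed sign when scaled to the hybridization controls.

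Within polyribosome RNA, 3 of the 16 probe sets had both serum-treated arrays above both starved ones and 0 had both below, while 16.2% of all 9316 probe sets had both above and 17.4% both below. The 3 were Col1a2 101130_at (0.28), Lox 160095_at (0.12) and Lox 161177_f_at (0.32), a share near that of all probe sets. The cytoplasmic pair, 1 array each and so without a test, had 7 members above 0 and 9 below, with a median of -0.02. Of all 9316 probe sets 49.5% were above 0. The values ran from -0.61 for Col3a1 102990_at (7.30 in serum-treated and 7.91 in starved cytoplasmic RNA) to 0.66 for Col6a1 162459_f_at (8.13 in serum-treated and 7.47 in starved cytoplasmic RNA). On the normalized scale the 3 Col3a1 probe sets had -0.42, -0.29 and -0.61, and those of Lox -0.44 and -0.0087. The 3 type VI probe sets had 0.32, 0.66 and 0.56. With 1 array per state, no serum direction by collagen type is drawn from these values.

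Of the related genes 1 was called with serum. Over polyribosome and cytoplasmic RNA 0 of 18 modification and folding genes, 0 of 16 matrix genes and 0 of 18 other collagens were called by limma. Of all 9316 probe sets 0.891% were called, so these counts of 0 are near the share of all. Of 14 regulators Cebpb, a CCAAT/enhancer-binding transcription factor, was 1.37 ± 0.23 higher (adjusted p = 0.0312). Of 10 macrophage markers tested 5 were higher with serum (Ctss, Lyz2, Tyrobp, Laptm5 and Cd14), against 0.666% of all probe sets. In undertranslated RNA 0 of these 10 were called. The summed intensity of the 12 on the array was 4266 to 5308 in serum-treated and 1423 to 1685 in starved polyribosome RNA. In cytoplasmic RNA it was 886.8 in serum-treated and 415.4 in starved cultures. None of the 12 was below background on all 10 arrays. Their part in the member values over polyribosome and cytoplasmic RNA, where 0 were called, was not tested.

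**Figure D5:**
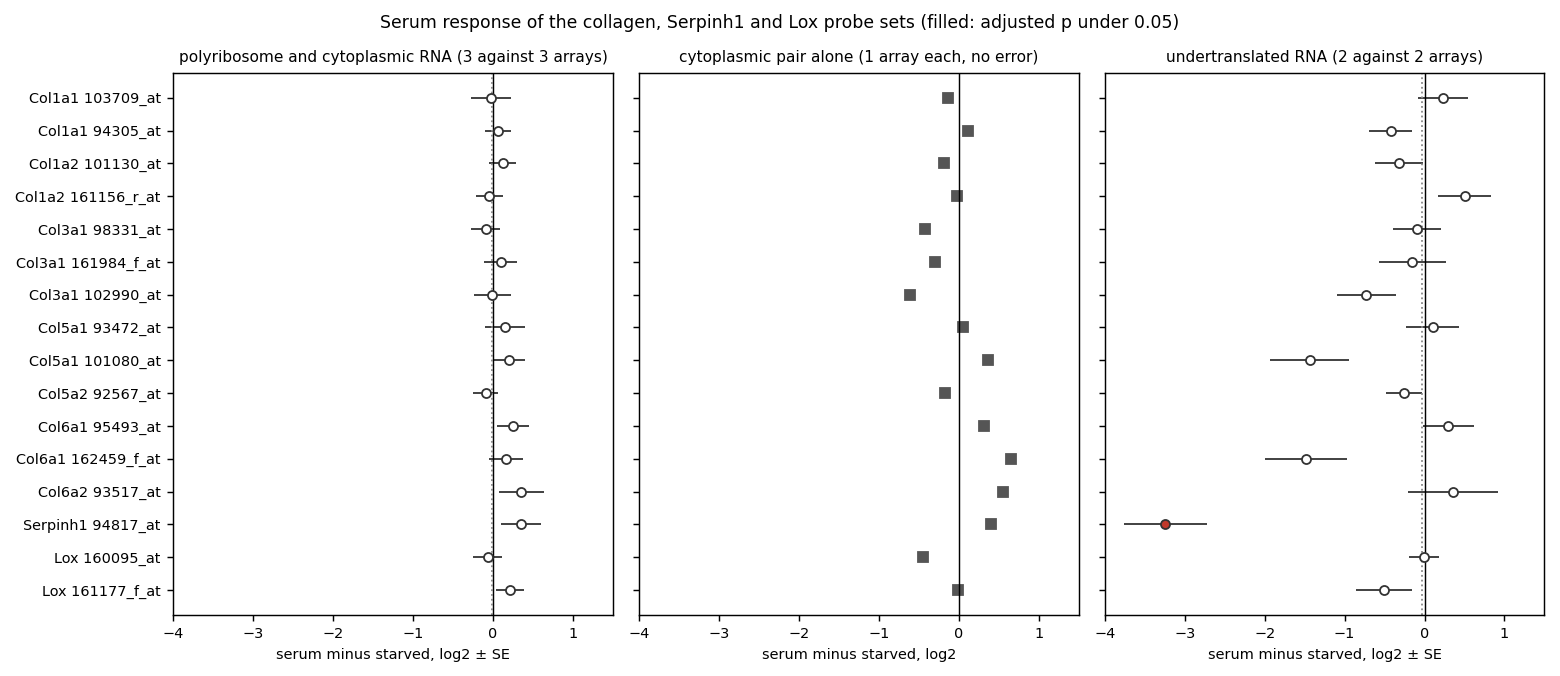
Serum-treated minus starved log2 difference (horizontal axis) of each probe set over polyribosome and cytoplasmic RNA (left, ± SE), in the cytoplasmic pair alone (middle, without error) and in undertranslated RNA (right, ± SE); the filled point passed an adjusted p of 0.05. Serpinh1 in undertranslated RNA, at -3.24, is the 1 filled point.

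In undertranslated RNA 1 of the 16 probe sets, Serpinh1, was lower with serum and 0 were higher; 1.07% of all probe sets were called, 0.29% higher and 0.784% lower. As given above, its levels were 1.77 and 3.13 in serum-treated and 5.40 and 5.98 in starved undertranslated RNA, so the groups did not overlap. The deposited intensities were 0.9 and 3.5 in serum-treated and 13.4 and 21.6 in starved undertranslated RNA. The fitted difference was -3.24 ± 0.52 (adjusted p = 0.0340), but both serum-treated arrays were below background, and the bound is at least 1.87-fold lower. The call was lost with the values as deposited (-2.42, adjusted p = 0.0667), with hybridization controls (-2.37, adjusted p = 0.0785), and when any 1 of the 2 starved undertranslated or the 4 polyribosome arrays was left out (adjusted p = 0.107 to 0.137). Over the 18 settings tried its difference ran from -3.92 to -2.19.

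The other 15 were not called. Col6a1 162459_f_at (-1.48 ± 0.51, adjusted p = 0.183) was below background on the 4 arrays, so no fold is given, and Col5a1 101080_at (-1.44 ± 0.49, adjusted p = 0.181) had 2.92 and 4.29 in serum-treated and 4.99 and 5.10 in starved undertranslated RNA, at least 1.20-fold lower. The other 13 ran from -0.73 to 0.50, and the median of all 16 was -0.20 against -0.04 for all tested. The serum-treated undertranslated arrays were the least alike of the replicate pairs, with r = 0.792 across probe sets against 0.890 in starved undertranslated and 0.968 to 0.969 in polyribosome RNA. Leaving out replicate 2 of the serum-treated undertranslated arrays raised the calls to 4 of 16 members and 2302 of all probe sets. As deposited 0 of 22 calls were higher and with median centring 10.3% were, against 27 of 100 after quantile normalization.

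The last test asks whether serum shifted the difference between the gradient pools. Of all 9316 probe sets 0 were called by limma (0%), and so 0 of the 16, while 720 passed 0.05 before adjustment and none went under 0.442 after it. For Serpinh1 the fitted shift was 3.57 ± 0.73, with an unadjusted p of 0.00102 and an adjusted p of 0.442. Its size is not measured, since both serum-treated undertranslated arrays were below background. In serum-treated cultures the mean log2 level was 9.64 in polyribosome RNA, against a bound of 4.78 in undertranslated RNA (at least 28.9-fold). In starved cultures the mean log2 levels were 9.31 and 5.69, a difference of 3.62 log2. Serpinh1 was the 1 member of the 16 under 0.05 before adjustment. Without replicate 2 of the serum-treated undertranslated arrays 902 probe sets and 3 members were called. The other 15 shifts ran from -0.56 to 1.55.

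The profiles of the 9 genes across the 10 arrays (brightest probe set of each, standardized and averaged) were most alike to those of Atxn10 (r = 0.989), Fkbp9, an endoplasmic reticulum prolyl isomerase (0.984), Nsmce3 (0.980), Wdr81 (0.980) and Saraf (0.980), out of 3197 candidate probe sets above background on each array. Atxn10 averaged 8.08 in polyribosome, 6.59 in undertranslated and 8.69 in cytoplasmic RNA. Of the members themselves, Col1a2 101130_at followed the mean profile at r = 0.951, Col3a1 98331_at at 0.926 and Lox 160095_at at 0.363. These sets are each part of that mean, so their r are not independent of it. Col1a1 94305_at, which did not enter the mean, followed it at 0.762. The probe sets that ran against it were Col1a2 161156_r_at (-0.843), Col1a1 103709_at (-0.609) and Lox 161177_f_at (-0.232), and 103709_at was itself the Col1a1 set that entered the profile. The 10 arrays share 3 RNA pools, so these values mostly order genes by their pool levels and carry no p.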

How the data were processed

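Affymetrix arrays were hybridized with linearly amplified, biotin-labelled RNA, per the labels' protocols. The authors deposited 1 intensity per probe set and array; how these were summarised and scaled is not given in the sources used here. Of 12488 rows, 66 control sets were left out; of the other 12422 probe sets, 10833 had 1 symbol, 396 several and 1193 none. The intensity plus 1.5 was taken to log2 and quantile normalized over the 10 arrays, and probe sets with a mean under the 25th percentile were left out, which left 9316. Differences were fitted with limma 3.58.1 in R 4.3.3 (lmFit and eBayes, two-sided, Benjamini-Hochberg over the probe sets tested, threshold 0.05, 95% intervals). Polyribosome and undertranslated arrays were fitted together (8 arrays), and each was fitted with the cytoplasmic arrays apart (6 arrays each). A probe set was above background on an array when it exceeded the highest of 19 unspiked control sets there; where all arrays of a group were below it, a bound on normalized values is given. The number of arrays limits the precision.

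Same-numbered arrays may share cultures. The correlation of their deviations from group means was 0.275 for serum-treated with starved polyribosome RNA and 0.0171 to 0.0535 for the other pairs of gradient groups, so the numbers were not taken as pairs and the replicate block is an alternative. Other alternatives were the values as deposited, median centring, scaling to 9 hybridization controls, pseudocounts of 1 and 4.2, no filter, a filter at the 50th percentile, all 10 arrays in 1 fit, and each array left out. Up to 3 called genes per related list and comparison are named, by the size of their difference. The genes and lists were chosen with earlier results of these data known. The labelled ATF1 genotype was not checked here.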

Additional observations from a re-analysis of the deposited data

Results flagged for a closer look

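In 3 probe sets the normalized levels of both serum-treated polyribosome arrays lay above both starved ones, while the cytoplasmic pair's difference was below 0. Of all 9316 probe sets, 16.2% had both serum-treated polyribosome arrays above both starved ones. In the cytoplasmic pair 49.5% of all were above 0. The share of all probe sets that met both conditions was not computed, so the count is not read as a result about these genes. For Col1a2 101130_at the serum-treated minus starved difference was 0.28 in polyribosome and -0.19 in cytoplasmic RNA. Lox 160095_at had 0.12 in polyribosome and -0.44 in cytoplasmic RNA. Lox 161177_f_at had 0.32 in polyribosome and -0.0087 in cytoplasmic RNA, the last value being almost no difference. The difference between the pools was not tested, since cytoplasmic RNA had 1 array per state. As deposited, the polyribosome arrays of Lox 160095_at overlapped, with 4221 and 4086 in serum-treated and 4283 and 3451 in starved cultures.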

How the results depend on the processing

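The pool comparisons depend on how arrays were scaled. With the values as deposited, calls numbered 8595 of all probe sets between polyribosome and undertranslated RNA, 7153 (15 members) between polyribosome and cytoplasmic RNA and 5483 between undertranslated and cytoplasmic RNA; with hybridization controls they numbered 8886 in the first of these and 9021 in the last. Between polyribosome and undertranslated RNA, Col1a2 161156_r_at turned to 1.59 as deposited and 1.90 with hybridization controls, Col6a1 95493_at to 3.89, 4.20 and, with median centring, 1.42, and Col1a1 103709_at to 0.28 with hybridization controls. Between polyribosome and cytoplasmic RNA, values as deposited turned Col1a2 101130_at (1.08) and 161156_r_at (0.77), Col5a1 93472_at (0.84) and 101080_at (1.06) and Serpinh1 (1.16), and hybridization controls turned Col3a1 98331_at (-0.20) and Col5a2 (-0.17). Between undertranslated and cytoplasmic RNA, Col1a1 103709_at turned to -0.76 as deposited and -2.65 with hybridization controls, Col1a2 161156_r_at to -0.82 and -2.72, Lox 160095_at to -2.39 and -4.28, and Lox 161177_f_at to -1.38 and -3.27; median centring gave -1.18 and -0.17 for the Lox sets. For serum over polyribosome and cytoplasmic RNA, Col1a1 94305_at was -0.022 as deposited, and with hybridization controls it was -0.30, Col1a2 101130_at -0.21, Col6a1 95493_at -0.16, Col6a2 -0.024 and Serpinh1 -0.035; the cytoplasmic pair's median was then -0.24. In undertranslated RNA, serum calls numbered 22 as deposited and 12 with hybridization controls, with 0 members in each. These scalings differ by construction in the median they give all probe sets.

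Other settings moved fewer values. Over polyribosome and cytoplasmic RNA the serum calls numbered 24 without the filter, 149 with the replicate block and 0 with all 10 arrays in 1 fit. With the replicate block, serum calls in undertranslated RNA numbered 52 (Serpinh1 adjusted p = 0.0450), and between pools Col3a1 98331_at was -0.063 against cytoplasmic RNA and Lox 160095_at -0.020 in undertranslated against cytoplasmic RNA. The block ended the calls on Col1a2 161156_r_at (-0.52), Col3a1 102990_at (0.64) and Lox 160095_at (0.66) between polyribosome and cytoplasmic RNA. All 10 arrays in 1 fit called 424 probe sets and 5 members there. The cause was not tested.

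Leaving out 1 array gave 5 (without starved cytoplasmic) to 118 serum calls over polyribosome and cytoplasmic RNA. In undertranslated RNA it gave 0 to 2302 serum calls and 0 to 4 members, and for the shift 0 to 902 and 0 to 3, the highest each without replicate 2 of the serum-treated undertranslated arrays. Against cytoplasmic RNA, polyribosome RNA had 351 to 2497 calls (5 to 10 members) and undertranslated RNA 462 to 3446 (6 to 13 members), the lowest each without the serum-treated cytoplasmic array. Signs turned between polyribosome and undertranslated RNA for Col6a1 95493_at (-0.13 to 0.13). Between polyribosome and cytoplasmic RNA they turned for Col1a2 101130_at (-0.41 to 0.059), Col3a1 98331_at (-0.21 to 0.29) and 161984_f_at (-0.0057 to 0.58) and Col5a2 (-0.028 to 0.097), and between undertranslated and cytoplasmic RNA for Lox 160095_at (-0.19 to 0.24). Signs of called members turned in 0 such fits. Undertranslated signals near background limit Serpinh1, Col5a1 101080_at, Col6a2 and Col6a1 162459_f_at.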
